A study of Mus musculus with 12 samples.

Results

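The genes described here are 32 genes that mark microglia and other phagocytes of the brain, covering homeostatic identity genes, C1q, adaptors and receptors that signal through an ITAM (a tyrosine-based activation motif), lysosomal genes and genes of innate activation. A member was a row of the expression table with a single gene symbol on GEO's platform annotation, and the brightest row was used for genes with several. 31 of the 32 members had such a row among 22180 genes in all. Spp1, which encodes osteopontin, had none, so its expression was not analysed and it entered the promoter counts only. Cerebellar RNA of 12 mice was hybridised to 12 Affymetrix whole-transcript arrays, 1 for each mouse. The groups, of 3 mice each, were Ciz1-/- females, Ciz1-/- males, wild-type females and wild-type males, called KO female, KO male, WT female and WT male. The controls are wild type by their source name and Ciz1+/+ by the extraction protocol, whereas their genotype field reads Ciz1+/-. The mice were 10 months old according to the protocol and 6 to 10 months old according to the series design. How the Ciz1 allele was made and in which cells it is absent are not stated in the sources used here. Whether the mice shared litters is not stated either. The p-values set differences against the spread between these mice and treat the mice as independent, which shared litters would undermine. All values are RMA intensities on the log2 scale, and differences are KO minus WT unless stated.

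Microglia are the resident macrophages of the brain. In the healthy brain they express a set of homeostatic genes, among them purinergic receptors that sense nucleotides released from damaged cells and the fractalkine receptor that reads a neuronal ligand. They clear synapses and dying cells with the help of complement C1q and of receptors that signal through the ITAM adaptors Tyrobp and Fcer1g, and they digest the cargo in lysosomes. On activation, phagocytes induce chemokines and lysosomal proteins. In the cerebellum microglia are sparser than in much of the forebrain. The Ciz1 protein acts in the nucleus, in DNA replication and in the anchoring of Xist RNA on the inactive X chromosome.

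The libraries were similar in overall brightness, with array medians of 96.5 to 98.7 intensity units. Ciz1 was at 6.82 to 7.31 in the 6 KO arrays and at 8.70 to 8.90 in the 6 WT arrays, a difference of -1.64 (SE 0.07; limma adjusted p = 1.42e-06). On the first principal component of all genes, which held 16% of the variance, the 3 KO female arrays lay at 10.72 to 16.01 and the other 9 arrays at -12.18 to 3.54. The 95th percentile of 1105 olfactory receptor genes, at 6.47, was taken as a background level, and 25 of the 31 members had a mean above it. The members at or below it were Aif1, Fcrls, Gpr34, Itgam, Ptprc and Cd14, so the defining microglial genes Cx3cr1, P2ry12, P2ry13, Tmem119 and Csf1r were above background and Aif1 was not. Ciz1 in the KO arrays was also above this level, and the means of P2ry13 (7.26) and Tmem119 (7.12) lay inside its KO range. The source of that remaining Ciz1 signal was not tested.

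Between KO and WT cerebellum, 0 of the 31 members passed an adjusted p of 0.05 in limma, in either sex or averaged over the sexes. Averaged over the sexes, 23 members were higher and 8 lower in KO, with a median difference of 0.05, while 10998 genes of 22180 were higher and the median of all genes was -0.0007. At an unadjusted p under 0.05, 3 members were higher (Ccl3, Cd68 and Fcrls) and 0 lower. In all genes 4.38% were higher and 4.87% lower at that threshold, and 0.0225% passed the adjusted threshold. In bulk tissue, fewer cells of a type and less RNA per cell cannot be told apart. The map of all members by array shows how small most of these differences were beside the spread between mice of one group.

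**Figure D1:**
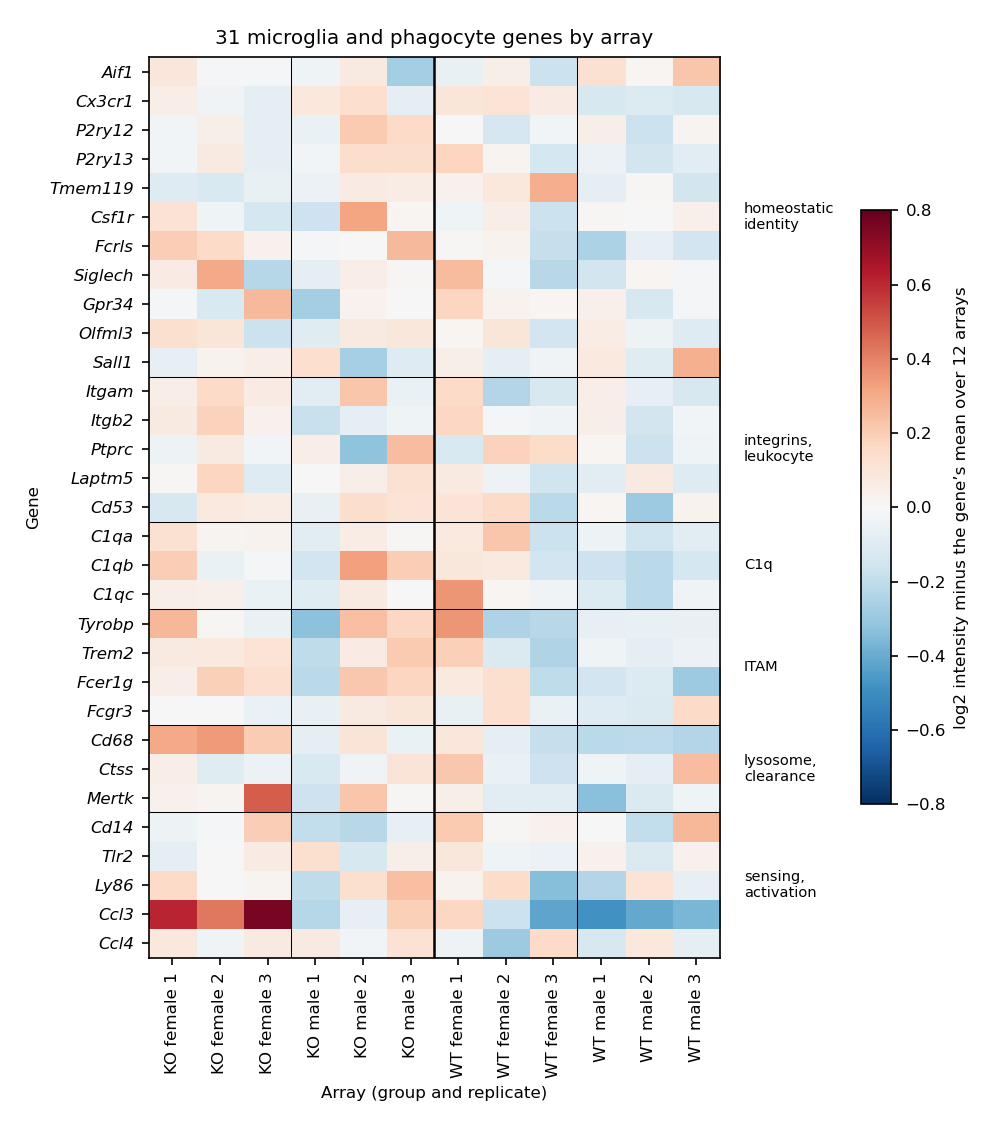
Each cell gives the log2 intensity of 1 gene on 1 array minus that gene's mean over the 12 arrays, with genes in rows grouped by role and arrays in columns grouped by genotype and sex. Ccl3 and Cd68 were high in the 3 KO female arrays, and the columns KO male 1 and WT female 3 were low for many genes.

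Ccl3, a chemokine that attracts monocytes and other leukocytes, had the largest difference of the 31 members. It was at 7.70, 7.51 and 7.85 in KO females, against 7.26, 6.92 and 6.67 in WT females. It was at 6.86, 7.03 and 7.28 in KO males, against 6.61, 6.68 and 6.72 in WT males. Within each sex all 3 KO arrays lay above all 3 WT arrays, but WT female 1 lay above KO male arrays 1 and 2, so the 6 KO and 6 WT arrays overlapped. The difference was 0.56 over both sexes (SE 0.10, 95% interval 0.34 to 0.79; limma adjusted p = 0.154), or 1.48-fold. It was 0.74 in females (SE 0.14; limma adjusted p = 0.229) and 0.38 in males (SE 0.14; limma adjusted p = 0.874), and the effects in females and males differed by 0.36 (SE 0.20; limma adjusted p = 0.998). The call depended on the variance model and on the genes tested. With an intensity trend in the prior variance Ccl3 passed, with a limma adjusted p of 0.0273 over both sexes and 0.0437 in females. It also passed among genes above the median brightness, with limma adjusted p-values of 0.0331 and 0.0496. With each array's choroid plexus level in the model the Ccl3 difference was 0.49 (limma adjusted p = 0.298).

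Cd68, a glycoprotein of lysosomes and endosomes in phagocytes that is widely used as a mark of phagocytic activity, had the second smallest p of the members. It was at 8.49, 8.53 and 8.39 in KO females, against 8.28, 8.11 and 8.0 in WT females. It was at 8.11, 8.29 and 8.13 in KO males, against 7.97, 7.98 and 7.95 in WT males. The 3 KO female arrays were the highest of the 12, the 3 WT male arrays were the lowest, and the groups did not overlap within a sex. The 3 KO female arrays, highest for Ccl3 and Cd68, also had the lowest levels of oligodendrocyte markers (-0.29 to -0.23), whose part in these differences was not tested. The difference over both sexes was 0.27 (SE 0.06, 95% interval 0.15 to 0.40; limma adjusted p = 0.229), with 0.34 in females (limma adjusted p = 0.276) and 0.21 in males (limma adjusted p = 0.874). Its adjusted p lay between 0.0641 and 0.407 over the alternative settings tried, and its difference between 0.24 and 0.31 when single arrays were left out.

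Ccl3 and Cd68 both lie on chromosome 11, and their promoter windows are shown because these genes stood furthest from WT among the members. The windows run from 250 bases before to 50 bases after the RefSeq start in GRCm38.p6. The Ccl3 window is chr11:83649329-83649628 on the minus strand and the Cd68 window is chr11:69666121-69666420 on the minus strand. Capitals mark GAGGAA or its reverse complement TTCCTC, the core letters bound by PU.1 (Spi1), the transcription factor that directs macrophage and microglial genes.
Ccl3: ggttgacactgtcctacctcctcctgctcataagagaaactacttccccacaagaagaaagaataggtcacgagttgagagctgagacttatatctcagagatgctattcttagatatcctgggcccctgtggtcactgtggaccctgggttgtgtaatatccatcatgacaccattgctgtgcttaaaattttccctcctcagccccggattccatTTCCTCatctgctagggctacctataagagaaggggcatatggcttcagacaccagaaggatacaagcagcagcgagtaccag
Cd68: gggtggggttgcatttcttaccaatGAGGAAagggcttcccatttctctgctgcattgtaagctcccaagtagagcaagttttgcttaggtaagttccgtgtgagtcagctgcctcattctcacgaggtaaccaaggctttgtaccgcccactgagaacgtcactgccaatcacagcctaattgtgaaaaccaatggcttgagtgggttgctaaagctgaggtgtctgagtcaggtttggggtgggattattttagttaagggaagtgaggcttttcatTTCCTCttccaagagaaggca
The match in the Ccl3 window began at position -33 relative to the start, and those in the Cd68 window at -225 and 30. Of the 24 members with a promoter in the table, 16 held this core on either strand (66.7%), against 31.3% of 27025 genes. The longer form GAGGAAGT, which contains the core, was in 4 of 24 (16.7%), namely C1qc, Cd53, Ctss and Spp1, against 3.69% of genes. The AP-1-like letters TGANTCA, with N for any base, were in 2 of 24, Cd68 and Trem2 (8.33%, against 8.97% of genes). The Cd68 matches read TGAGTCA. The Trem2 match reads TGAATCA, without the central C or G of the usual AP-1 site, and the share of genes also counts matches with any central base. The NF-kB letters GGANTTTCC were in 0 of 24, against 1.45% of genes. TATAAA was in 5 of 24 (20.8%), against 15.7% of genes, and was searched on both strands like the other motifs. Fcgr3, Ptprc, Sall1 and Spp1 have more than 1 promoter in the table, and a gene counted once if any of its windows held the letters.

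The other genes of lysosome and clearance were Mertk and Ctss. Mertk, a receptor kinase that recognises dying cells through Gas6 and Pros1 and is also made by astrocytes, was at 8.90, 8.88 and 9.35 in KO females, against 8.90, 8.78 and 8.77 in WT females. In males it was at 8.69, 9.08 and 8.87 in KO, against 8.53, 8.75 and 8.82 in WT. KO female 3 stood alone at the top and the other groups overlapped, with a difference of 0.20 (SE 0.09; limma adjusted p = 0.543). Ctss, which encodes the protease cathepsin S, differed by -0.04 (SE 0.08; limma adjusted p = 0.903), and its KO arrays (8.66 to 8.89) lay inside the range of its WT arrays (8.62 to 9.03).

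**Figure D2:**
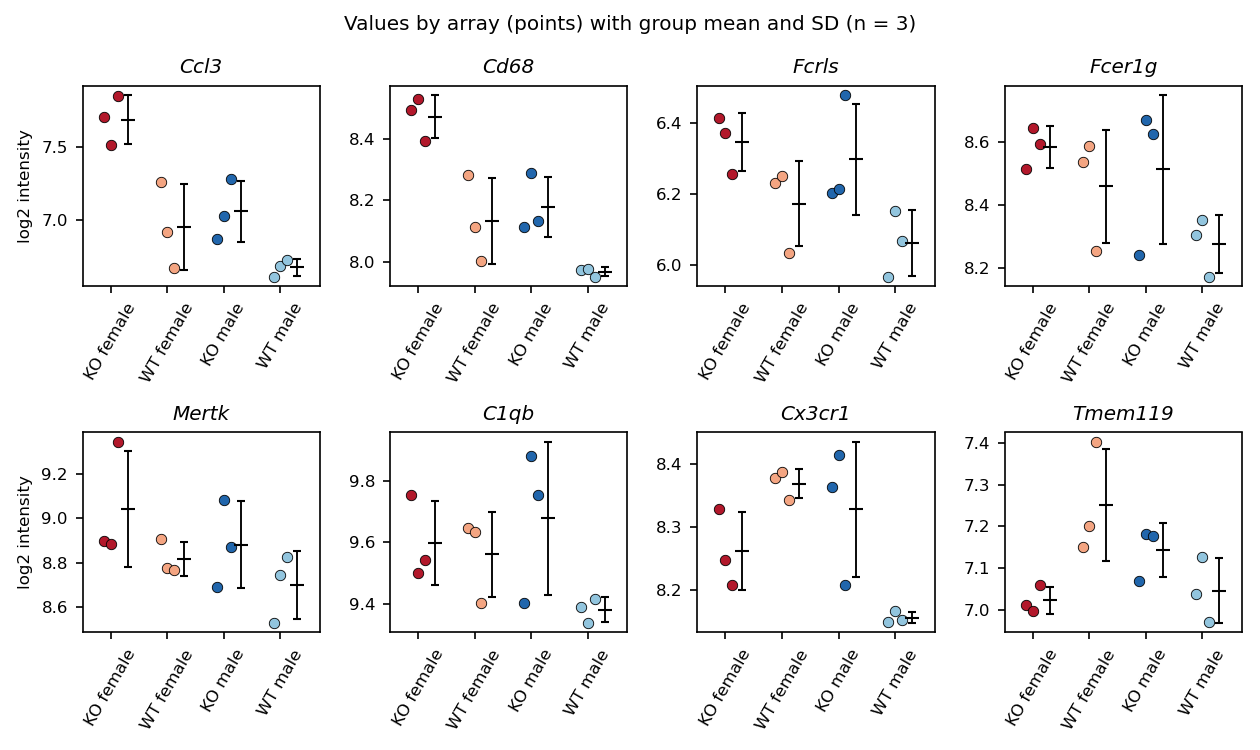
Points give the log2 intensity of 8 genes on each array, with the mean and SD of each group of 3 beside them, for KO females, WT females, KO males and WT males. For Ccl3, Cd68 and Fcrls the KO points lay above the WT points within each sex, and for Cx3cr1 they lay below in females and above in males.

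Among the genes of sensing and activation other than Ccl3, the differences were small. Ccl4, the chemokine most related to Ccl3 and located beside it on chromosome 11, was at 6.91 to 7.06 in KO arrays and at 6.65 to 7.10 in WT arrays, and differed by 0.10 (SE 0.07; limma adjusted p = 0.706). The RefSeq spans of Ccl3 and Ccl4 overlap in GRCm38.p6, and whether the array's probes lie in the shared stretch was not known here. Ly86, an accessory protein of a Toll-like receptor relative, differed by 0.12 (SE 0.10; limma adjusted p = 0.746). Tlr2, a receptor for bacterial lipoproteins, differed by 0.01 (SE 0.06), with a 95% interval of -0.11 to 0.14. Cd14, the lipopolysaccharide co-receptor, was below background and had the most negative difference of the members, -0.11 (SE 0.08; limma adjusted p = 0.701). Of the 5 genes of this group 4 were higher and 1 lower in KO, with a median difference of 0.10.

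The 11 homeostatic identity genes showed no common direction, with 7 higher and 4 lower in KO and a median difference of 0.04. Fcrls, an Fc receptor-like protein typical of mouse microglia, was at 6.41, 6.37 and 6.26 in KO females, against 6.23, 6.25 and 6.04 in WT females. It was at 6.20, 6.22 and 6.48 in KO males, against 5.97, 6.15 and 6.07 in WT males. The groups did not overlap within a sex, although the gaps were narrow and the gene was dim. Its difference was 0.20 (SE 0.06; limma adjusted p = 0.412).

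Cx3cr1, the receptor for the neuronal chemokine Cx3cl1, lay on opposite sides of WT in females and males. It was at 8.33, 8.25 and 8.21 in KO females, against 8.38, 8.39 and 8.34 in WT females. It was at 8.36, 8.41 and 8.21 in KO males, against 8.15, 8.17 and 8.15 in WT males. All KO female arrays were below all WT female arrays, and all KO male arrays were above all WT male arrays. The difference was -0.11 in females (SE 0.06; limma adjusted p = 0.685) and 0.17 in males (SE 0.06; limma adjusted p = 0.874). The effect in females minus that in males was -0.28 (SE 0.09; limma unadjusted p = 0.00929, adjusted p = 0.990).

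Tmem119, a surface protein used as a marker of resident microglia, was lower in KO females, at 7.01, 7.0 and 7.06, against 7.15, 7.20 and 7.40 in WT females, without overlap. In males it was at 7.07, 7.18 and 7.18 in KO, against 7.04, 7.13 and 6.97 in WT, and these overlapped. The difference was -0.23 in females (SE 0.07; limma adjusted p = 0.466) and 0.10 in males (SE 0.07; limma adjusted p = 0.948), and the effects differed by -0.33 (SE 0.11; limma adjusted p = 0.990). None of these comparisons passed the adjusted threshold.

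The remaining homeostatic genes differed by less than 0.10 over both sexes. P2ry12, the ADP receptor that guides microglial processes to injury, differed by 0.09 (SE 0.06; limma adjusted p = 0.690), with KO arrays at 7.43 to 7.72 and WT arrays at 7.34 to 7.56. P2ry13, a related nucleotide receptor, differed by 0.08 (SE 0.06), and its KO male arrays, at 7.24, 7.40 and 7.40, all lay above the WT male arrays, at 7.21, 7.11 and 7.17. Csf1r, the receptor for Csf1 and Il34 on which microglial survival depends, differed by 0.04 (SE 0.08), with a 95% interval of -0.14 to 0.21. Sall1, a transcription factor that maintains microglial identity, differed by -0.07 (SE 0.08), and Aif1, which encodes the actin-binding protein IBA-1, by -0.06 (SE 0.07). Siglech, a sialic acid-binding lectin, Olfml3, a secreted glycoprotein, and Gpr34, a lysophosphatidylserine receptor, differed by 0.04, 0.04 and -0.04.

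The integrins and leukocyte genes were close to WT as well. Itgam, which encodes CD11b, differed by 0.12 (SE 0.08; limma adjusted p = 0.658), and Itgb2, which encodes the CD18 chain that pairs with CD11b in complement receptor 3, by -0.00 (SE 0.05), with a 95% interval of -0.12 to 0.12. Laptm5, a lysosomal membrane protein of blood cells, differed by 0.08 (SE 0.06), Cd53, a tetraspanin, by 0.07 (SE 0.08), and Ptprc, the phosphatase CD45, by -0.01 (SE 0.09). The median of these 5 genes was 0.07, with 3 higher and 2 lower in KO.

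C1qa, C1qb and C1qc are adjacent genes on chromosome 4 and encode the 3 chains of C1q, the recognition molecule of the classical complement pathway, which is made in the brain by microglia. C1qb was at 9.40, 9.88 and 9.75 in KO males, against 9.39, 9.34 and 9.42 in WT males. It was at 9.75, 9.50 and 9.54 in KO females, against 9.65, 9.63 and 9.40 in WT females. KO male 2 and KO male 3 were above every WT array, KO male 1 was level with WT males, and the females overlapped. The difference was 0.30 in males (SE 0.12; limma unadjusted p = 0.0266, adjusted p = 0.874) and 0.04 in females (SE 0.12; limma adjusted p = 0.951), and their difference of -0.26 (SE 0.17) had a limma adjusted p of 0.998. C1qa differed by 0.09 in males and 0.02 in females, and C1qc by 0.11 in males and -0.10 in females.

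The ITAM adaptors and receptors were 4 genes, all higher in KO on average, with a median difference of 0.11 and 0 past the adjusted threshold in limma. Fcer1g, the gamma chain of Fc receptors, was at 8.51, 8.65 and 8.59 in KO females, against 8.54, 8.59 and 8.25 in WT females. It was at 8.24, 8.67 and 8.63 in KO males, against 8.31, 8.35 and 8.17 in WT males. KO male 1 lay among the WT values while the other KO male arrays were above every WT array, and the difference over both sexes was 0.18 (SE 0.08; limma adjusted p = 0.539).

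Trem2, a lipid-sensing receptor needed for the microglial response to damage, differed by 0.11 (SE 0.08; limma adjusted p = 0.704), and its adaptor Tyrobp, known as DAP12, by 0.10 (SE 0.12; limma adjusted p = 0.838). Tyrobp had a wide spread, with KO arrays at 7.77 to 8.36 and WT arrays at 7.85 to 8.45. Its lowest value was in KO male 1 and its highest in WT female 1. Without KO male 1 the Tyrobp difference in males was 0.27, against 0.09 with it. Without WT female 1 it was 0.31 in females, against 0.11 with it, and 0.20 over both sexes, against 0.10. Without KO male 2 it was -0.02 in males. Fcgr3, a low-affinity receptor for immunoglobulin G, differed by 0.02 (SE 0.06).

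**Figure D3:**
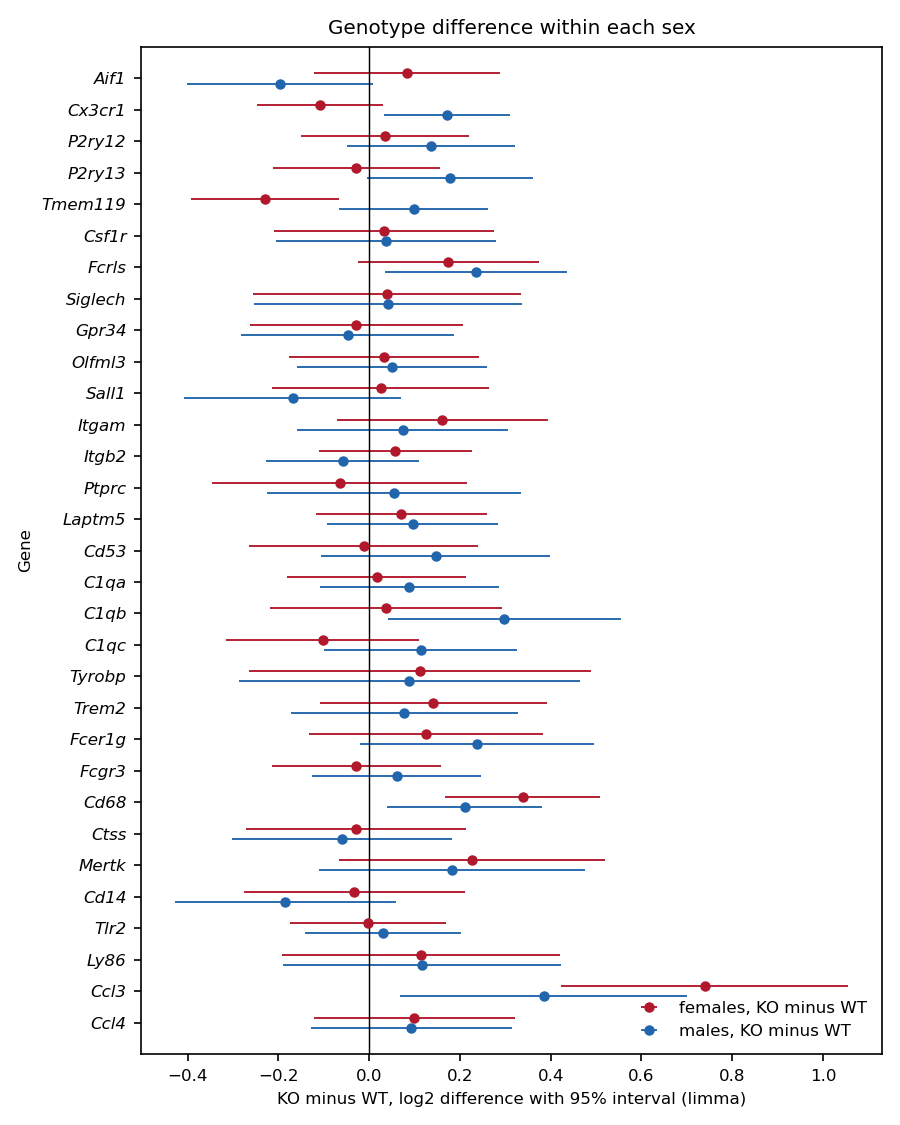
Points give the KO minus WT difference of each of the 31 genes on the log2 scale, with 95% intervals from limma, in females (red, upper) and males (blue, lower). The intervals of Ccl3 and Cd68 lay above 0 in both sexes, that of Tmem119 lay below 0 in females, and most others spanned 0.

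Taken by sex, 20 members were higher and 11 lower in KO females, with a median difference of 0.04, while 50.6% of all genes were higher. In males 25 members were higher and 6 lower, with a median of 0.09, while 48.1% of all genes were higher. In females 2 members were higher at an unadjusted p under 0.05 (Ccl3 and Cd68; 4.52% of all genes were) and 1 was lower (Tmem119; 3.98%), with 0 members and 0.0225% of genes past the adjusted threshold in limma. In males 5 members were higher (Cx3cr1, Fcrls, C1qb, Cd68 and Ccl3; 2.62% of all genes) and 0 lower (2.8%), again with 0 members and 0.0225% of genes past the adjusted threshold.

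Counted by overlap, the KO male arrays all lay above the WT male arrays in 5 members (Cx3cr1, P2ry13, Fcrls, Cd68 and Ccl3), against 4.66% of all genes, and all below in 0, against 5.64%. In females KO lay above WT in 3 members (Fcrls, Cd68 and Ccl3), against 7.46% of genes, and below in 2 (Cx3cr1 and Tmem119), against 7.41%. Fcrls, Cd68 and Ccl3 therefore lay above WT without overlap within each sex, as did 0.613% of genes, and 0 members lay below within each sex, against 0.748%. Cx3cr1 was the 1 member whose groups separated in opposite directions, against 0.347% of genes. No member had all 6 KO arrays above all 6 WT arrays, against 0.32% of genes, or all below, against 0.23%.

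For the difference between the effects in females and males, 13 members were positive and 18 negative, with a median of -0.00. Of all genes 52.2% were positive. At an unadjusted p under 0.05, 0 members were higher (2.54% of all genes) and 2 lower (Cx3cr1 and Tmem119; 2.28%), and 0 members and 0% of genes passed the adjusted threshold in limma. No sex difference in the genotype effect was therefore detected for any member after adjustment.

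Females were compared with males over both genotypes, and 23 members were higher and 8 lower in females, with a median difference of 0.04. Of all genes 48.7% were higher in females. At an unadjusted p under 0.05, 3 members were higher in females (Ccl3, Cd68 and Itgb2; 3.75% of all genes) and 0 lower (4.18%). 0 members and 0.0361% of genes passed the adjusted threshold in limma. The difference, females minus males, was 0.45 for Ccl3 (SE 0.10; limma adjusted p = 0.466), 0.23 for Cd68 (SE 0.06; limma adjusted p = 0.497) and 0.14 for Itgb2 (SE 0.05; limma adjusted p = 0.60).

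Most members followed the mean of the other members between mice of the same group. Across the 12 arrays, with group means removed, their correlation with that mean had a median of 0.532 and was positive for 25 of 31. For the 22149 other genes the correlation with the members' mean had a median of 0.022 and was positive for 11511. It ranged from -0.962 to 0.965, so large values also arose outside the members. These correlations are descriptions, and all genes on an array share its RNA sample and its normalisation. Trem2 followed the other members most closely (0.917), before P2ry13 (0.893), C1qc (0.835) and Tyrobp (0.811). Tmem119 (-0.459), Ccl4 (-0.412), Ptprc (-0.373) and Sall1 (-0.222) went against them. Of the 465 pairs of members 314 were positively correlated, with a median of 0.259. The same count was not made for pairs of other genes.

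**Figure D4:**
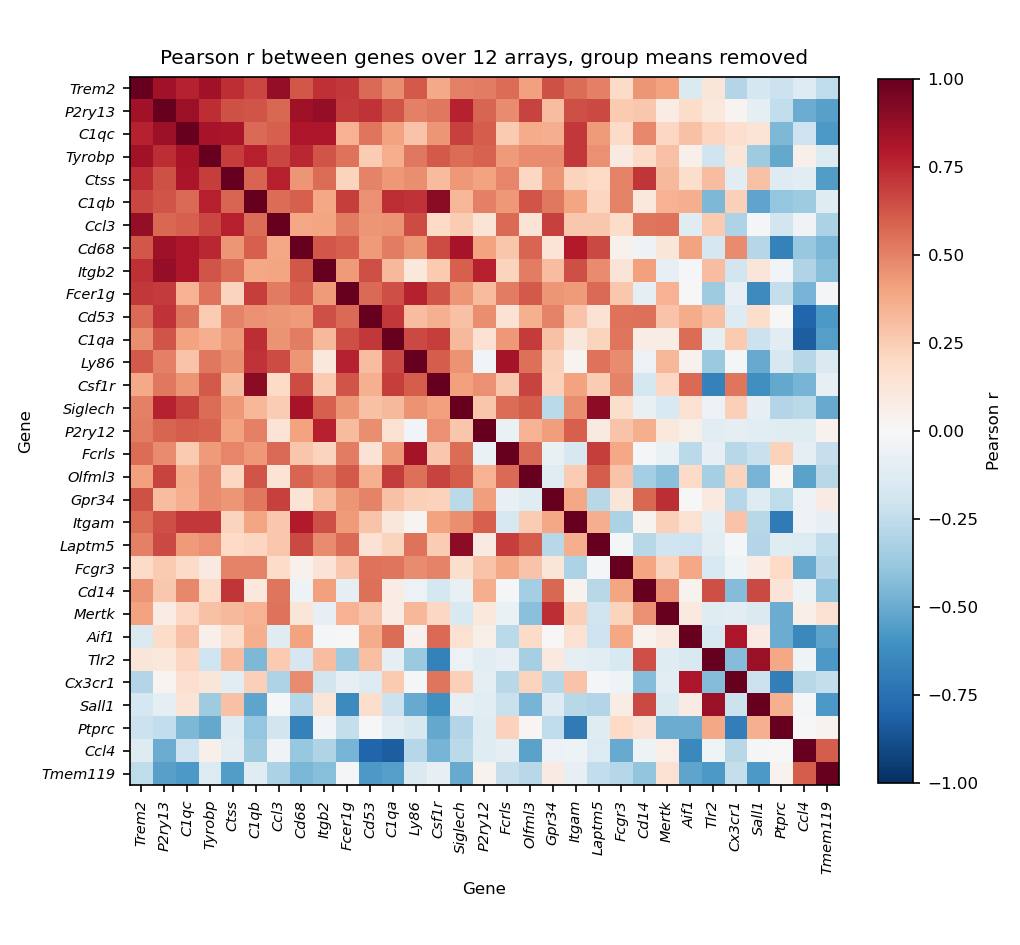
Each cell gives Pearson's r between 2 of the 31 genes over the 12 arrays after each gene's group means were removed, with genes ordered by their correlation with the mean of the others. A block from Trem2 to Siglech was mostly positive, and Tmem119, Ccl4 and Ptprc were mostly negative against it.

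The promoters of C1qb, C1qc and Trem2 are shown as examples of genes that moved closely with the other members. They are chr4:136886151-136886450 on the minus strand for C1qb, chr4:136892865-136893164 on the minus strand for C1qc and chr17:48346151-48346450 on the plus strand for Trem2, all in GRCm38.p6, with the same letters in capitals.
C1qb: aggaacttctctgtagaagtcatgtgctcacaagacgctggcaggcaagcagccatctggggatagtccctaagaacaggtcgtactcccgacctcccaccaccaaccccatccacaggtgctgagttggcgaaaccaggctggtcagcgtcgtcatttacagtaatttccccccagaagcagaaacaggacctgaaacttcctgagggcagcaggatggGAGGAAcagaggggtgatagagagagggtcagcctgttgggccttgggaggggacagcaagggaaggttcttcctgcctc
C1qc: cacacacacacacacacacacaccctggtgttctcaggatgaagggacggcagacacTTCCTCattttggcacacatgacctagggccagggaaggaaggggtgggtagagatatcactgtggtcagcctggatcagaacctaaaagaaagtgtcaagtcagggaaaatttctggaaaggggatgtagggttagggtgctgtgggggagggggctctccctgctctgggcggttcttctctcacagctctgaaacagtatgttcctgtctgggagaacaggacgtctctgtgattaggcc
Trem2: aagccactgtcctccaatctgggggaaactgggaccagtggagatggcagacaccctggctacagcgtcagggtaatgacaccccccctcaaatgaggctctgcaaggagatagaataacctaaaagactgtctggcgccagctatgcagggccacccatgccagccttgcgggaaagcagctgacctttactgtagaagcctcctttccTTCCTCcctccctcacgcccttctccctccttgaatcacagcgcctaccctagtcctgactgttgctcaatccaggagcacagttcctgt
The capitals began at position -30 relative to the start in C1qb, -193 in C1qc and -40 in Trem2. P2ry13 (0.893) and Ctss (0.799) followed the other members more closely than C1qb (0.787) and also held the core, but are not shown. The Fcer1g window, which held no such letters, is not shown either. Every window shown thus held the core, whereas 16 of the 24 members with a promoter did.

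Of 10 pairs of genes whose products act together or are used together as markers, compared over the 12 arrays, Tyrobp and its receptor Trem2 were the most correlated. Pearson's r was 0.844 (permutation p = 0.0006, adjusted over the 10 pairs 0.006) and Spearman's rho 0.825 (permutation p = 0.00143, adjusted 0.00715). It was 0.833 without the 2 arrays farthest from the median of Tyrobp and 0.842 with group means removed. C1qa and C1qb had an r of 0.723 (permutation p = 0.00823, adjusted 0.0411) and a rho of 0.790 (permutation p = 0.00354, adjusted 0.0118), and an r of 0.808 without the 2 farthest arrays. C1qb and C1qc had an r of 0.575 (permutation p = 0.0403, adjusted 0.101) and a rho of 0.832 (permutation p = 0.00121, adjusted 0.00715).

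P2ry12 and P2ry13, which are neighbours on chromosome 3, had an r of 0.629 (permutation p = 0.028, adjusted 0.0933). It was 0.331 without the 2 arrays farthest from the median of P2ry12 and 0.58 with group means removed. Their rho was 0.517 (permutation p = 0.089, adjusted 0.148). Ccl3 and Ccl4, also neighbours, had an r of 0.229 (permutation p = 0.482, adjusted 0.603). P2ry12 and Tmem119, both used as homeostatic markers, had an r of 0.00991 (permutation p = 0.975, adjusted 0.975). Of the other pairs, C1qa with C1qc, Itgam with Itgb2, Tyrobp with Fcer1g and Cx3cr1 with Csf1r had r from 0.195 to 0.554 and did not pass after adjustment, although rho for C1qa with C1qc did (0.713, permutation p = 0.0112, adjusted 0.028). The permutations shuffled all 12 arrays, so differences between the groups enter these p-values. With group means removed, r was 0.401, 0.645, 0.54 and 0.538 for these pairs in the order named. It was then 0.741 for C1qa with C1qb and 0.568 for C1qb with C1qc.

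The mean deviation of the 31 members from their 12-array means gives each array's level of the whole group. It was 0.07, 0.06 and 0.05 in KO females, against 0.10, -0.00 and -0.11 in WT females. It was -0.09, 0.06 and 0.07 in KO males, against -0.07, -0.10 and -0.03 in WT males. WT female 1 was the highest array and WT female 3 the lowest, so the spread within WT females covered every other array.

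**Figure D5:**
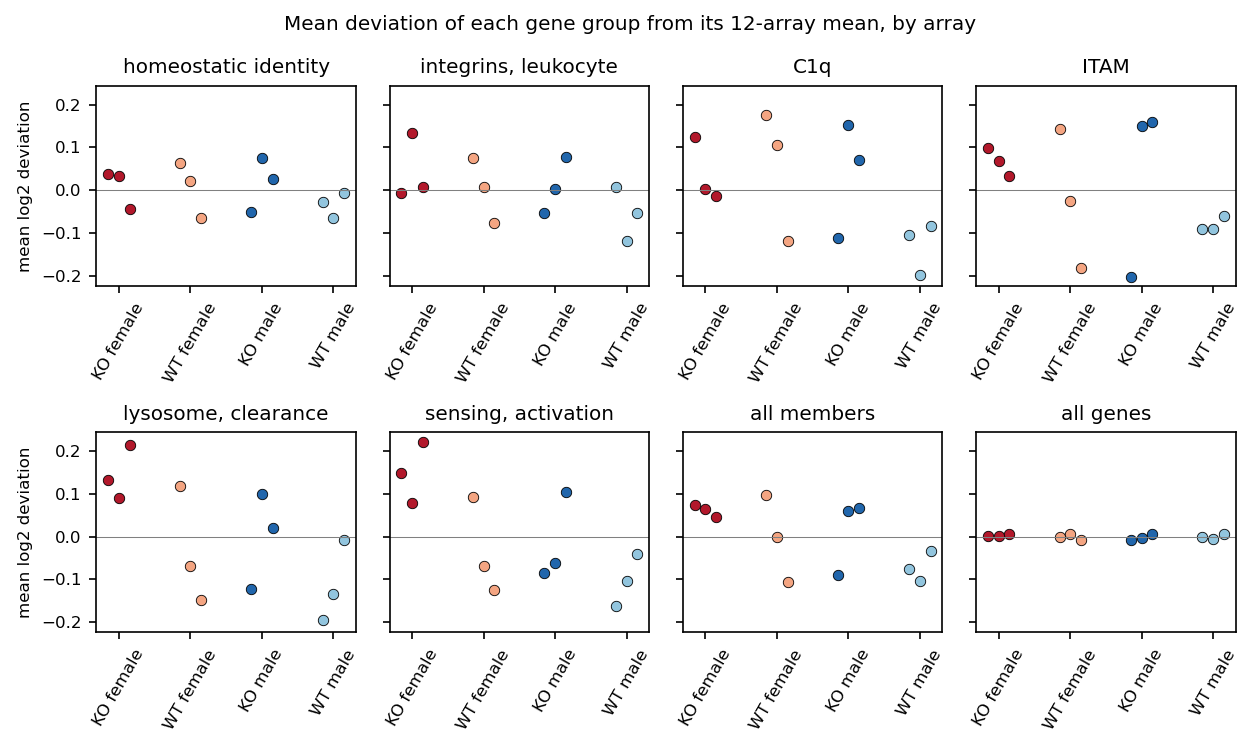
Points give, for each array, the mean log2 deviation of the genes of a role from their 12-array means, for the 6 roles, all 31 members and all genes, in KO females, WT females, KO males and WT males. KO male 1, WT female 3 and the 3 WT male arrays lay below 0 in both the C1q and ITAM panels, while all genes stayed within 0.01 of 0.

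Other microglial and phagocyte genes, in lists outside the 31 members, had medians close to 0. Of 14 other homeostatic genes 7 were higher and 7 lower in KO, with a median of 0.01. In each direction 2 of them had an unadjusted p under 0.05 in limma, against 4.38% of all genes higher and 4.87% lower. Il10ra, the interleukin 10 receptor, differed by 0.23, Tgfbr1, the receptor for the TGF-beta on which microglial identity depends, by -0.15, and Lpcat2, an enzyme of phospholipid synthesis, by -0.16. Of 8 microglial transcription factors 4 were higher and 4 lower, with a median of 0.01. Irf8 differed by 0.13, Ikzf1 by -0.10 and Batf3 by -0.07. Il10ra, Ikzf1 and Batf3 were below background.

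Of 16 genes of the disease-associated state 9 were higher and 7 lower, with a median of 0.02. At an unadjusted p under 0.05 in limma 3 were higher (4.38% of all genes) and 2 lower (4.87%). Lyz2, which encodes lysozyme, differed by 0.31 (SE 0.11; limma adjusted p = 0.462), Gpnmb, a glycoprotein of lipid-laden phagocytes, by 0.20 and Timp2, a metalloproteinase inhibitor, by -0.28. Of 18 lysosomal genes 8 were higher and 10 lower, with a median of -0.02. Grn, which encodes progranulin, differed by 0.13, Ctsa by 0.10 and Ctsb by -0.12. None of the genes in these 4 lists passed the adjusted threshold of limma in any contrast.

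In the complement pathway beyond C1q, 8 genes were higher and 5 lower, with a median of 0.04. C3ar1, the receptor for C3a on myeloid cells, had the smallest p, with a difference of 0.22 (SE 0.06; limma adjusted p = 0.327), before C5ar1 (0.08) and the complement inhibitor Cd59a (0.20). The inflammatory mediators were split, 8 higher and 8 lower, with a median of 0.01, and 5 of the 16 were above background. Icam1, which was, differed by -0.16, and Il6 and Tlr7, which were not, by 0.16 and 0.12. C5ar1 was below background. Ligands of microglial receptors had a median of 0.03, with 7 higher and 3 lower, and Sirpa, Cd47 and Cx3cl1 at 0.06, -0.07 and 0.08. Genes of ITAM signalling had the same median, 7 higher and 3 lower, and 3 of the 10 were above background. Inpp5d, which was, differed by 0.07, and the kinase Syk and Blnk, which were not, by 0.15 and -0.07.

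Markers of other cells that express some of the members were examined in the same way. Border macrophages had a median difference of 0.02 (7 of 10 higher, 3 of 10 above background), and their mean level ranged from -0.09 to 0.08 in KO arrays and from -0.14 to 0.09 in WT arrays. The defining genes Mrc1 and Cd163 were below background and differed by -0.10 and -0.08. Lyve1 differed by 0.13, and F13a1 and Cbr2, both below background, by 0.08 and 0.16. Monocyte and neutrophil markers had a median of 0.02 (8 of 11 higher, 3 of 11 above background), with levels of -0.07 to 0.16 in KO and -0.11 to 0.19 in WT. Their 3 genes with the smallest p were Cxcr2 (-0.23), S100a8 (0.20, below background) and Ly6c2 (0.19). Lymphocyte markers had a median of -0.00 (4 of 9 higher, 1 of 9 above background), with levels of -0.07 to 0.08 in KO and -0.08 to 0.11 in WT, and Cd3e, Nkg7 and Cd3g at 0.16, -0.10 and 0.13, of which Nkg7 alone was above background. MHC class II genes had a median of -0.03 (1 of 4 higher), with Ciita, H2-Eb1 and H2-Ab1 at -0.18, -0.05 and 0.02.

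Marker lists of other cerebellar cells were set beside these results. All 9 oligodendrocyte markers were lower in KO, with a median of -0.24, as were 11182 of all 22180 genes. Opalin, a membrane protein of myelinating cells, passed the adjusted threshold (-0.45, limma adjusted p = 0.0369), as did 0.0225% of all genes. In females the median was -0.38, and 9 of 9 were lower at an unadjusted p under 0.05 in limma (3.98% of all genes). In males the median was -0.14, with 8 of 9 lower and 0 at that threshold (2.8% of all genes). The mean level of these markers was -0.29 to 0.14 in KO arrays and 0.04 to 0.21 in WT arrays. All 9 choroid plexus markers were lower in KO, with a median of -0.26, and their level varied widely, from -0.79 to 0.55 in KO arrays and from -0.49 to 0.89 in WT arrays. Of 10 genes of astrocytes and Bergmann glia 8 were lower, with a median of -0.09. The medians were -0.00 for granule cells, 0.05 for Purkinje cells and 0.01 for endothelium and pericytes, and Slc4a1, the 1 red blood cell gene with a row, differed by -0.02 and was below background. With the choroid plexus level in the model, the differences of the 31 members over both sexes shifted by -0.07 (Ccl3) to 0.04 (Cd53). Cd68 then differed by 0.28 and Fcrls by 0.18, against 0.27 and 0.20 without it, whereas Tyrobp differed by 0.05 (0.10 without it), Ccl4 by 0.04 (0.10) and Ctss by -0.10 (-0.04).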

How the data were processed

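Per the labels, the authors deposited RMA values (Expression Console, core exons), which are intensity values on a linear scale. Per the submitters' processing notes, Transcriptome Analysis Console 3.0 was used too. The genome build was not given in the sources used here, nor was the authors' test. Deposited intensities were converted to log2 values without a pseudocount. Of 41345 rows, 23521 had 1 symbol, 1814 several and 16010 none. The brightest row was kept for 1082 genes with several rows, and none of the members had several.

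limma 3.58.1 in R 4.3.3 fitted a mean for each of 4 groups of 3 arrays with eBayes, and p-values were two-sided and adjusted by the Benjamini-Hochberg method over 22180 genes at 0.05. The fit was tested on simulated data. Permutation tests used 100000 resamples, with ranks for Spearman's rho from scipy 1.17.1. Array number limits the precision. The sample titles share no replicate numbers between groups, so numbers only name arrays.

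The members and gene lists were chosen with earlier results of these data known. Besides the members, the text names Ciz1, up to 3 genes with the smallest p from each of 19 lists (191 of 219 entries had a row), any listed gene past the threshold and the 10 genes most like the members. Predicted, Riken, olfactory and vomeronasal receptor symbols were passed over in choosing those 10. Mrc1, Cd163 and the MHC class II and choroid plexus levels by array were added after their values were seen. Alternatives were other variance models, filters, normalizations, pseudocounts, array weights, row averages, covariates and samples, and leaving out each array. Promoters are RefSeq's, from GRCm38.p6, and 24 of 32 members matched.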

Additional observations from a re-analysis of the deposited data

Results flagged for a closer look

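Among 62 sets of 6 arrays of 1 genotype, 1 per member and genotype, 4 had an array far from the others, by the gap to its nearest neighbour divided by the range of the set. Chance gives such an array in about 1 in 20 sets. Trem2 and Fcer1g were lowest in KO male 1 among the KO arrays, with ratios of 0.663 and 0.635. Aif1 was lowest in KO male 3 among the KO arrays, with a ratio of 0.653. Tyrobp was highest in WT female 1 among the WT arrays, with a ratio of 0.686. Cx3cr1 was lower in every KO female than in every WT female array and higher in every KO male than in every WT male array. The effect in females minus that in males was -0.279 on the log2 scale, with a limma adjusted p of 0.990, so that this difference did not pass the test.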

How the results depend on the processing

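Of 3293 values of single members recomputed over 24 settings, 3268 moved by less than 1 SE, 21 moved further and 4 passed the threshold newly. The sign changed in 204 of them, all of differences that did not pass the threshold before or after. Many of the 3293 values could not move. An intensity trend, robust variances, the brightness filter, row averages, the additive model and fits of a single sex left the differences as they were. Leaving out a female array could not change the difference in males, nor a male array that in females. The 4 that passed newly were Ccl3 over both sexes and in females, each under an intensity trend and among genes above the median brightness. There 1 member passed in place of 0. Under the intensity trend the genes past the threshold in all numbered 18 over both sexes, 26 in females, 2 for the difference between sexes' effects and 15 for females minus males. Among genes above the median brightness they numbered 14, 16, 2 and 13. With 16 added before log2 they numbered 8 in females and 1 for the difference between effects. Over both sexes they numbered 3 with the choroid plexus covariate and 3 in an additive model, and in males 2 with the male arrays alone. These compare with 5 over both sexes, 5 in males, 5 in females, 0 and 8. The cause was not tested. Leaving out single arrays gave 3 to 8 genes over both sexes, 2 to 4 in males, 3 to 7 in females, 0 to 1 for the difference between effects and 6 to 8 for females minus males. It gave 0 members throughout. The median difference of the members lay between 0.01 and 0.09 over both sexes, 0.06 and 0.14 in males, and -0.03 and 0.08 in females when single arrays were left out. For the difference between effects it lay between -0.0807 (without WT female 3) and 0.0168, and was -0.0773 without KO male 1. No paired analysis was possible because the labels give no replicate numbers shared between groups. With 3 arrays per group and 6 members below background, small differences were not detectable.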

Other observations

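Predicted, Riken, olfactory and vomeronasal receptor symbols were passed over here. Of the rest, the genes whose deviations from group means followed the mean of the members most closely were outside the lists examined. They were Sqor, an enzyme of sulfide oxidation (r of 0.957 over 12 arrays), Tmem69 (0.944), Grin3b, an NMDA receptor subunit (0.940), Ddx25 (0.935), Tmem134 (0.932), Mmab (0.927), Slamf6 (0.925), Ece2 (0.919), Dtd1 (0.911) and Gtf2f1 (0.907). The highest correlation among all 22149 non-member genes, 0.965, belonged to an olfactory receptor gene. The lowest was -0.962, so values this extreme occurred in both directions. Slamf6, at a mean of 5.53, was below background. No test was run on these correlations. Of the genes in the lists, Lyz2 reached 0.885, the protease gene Ctsz 0.812 and Rgs10, a regulator of G-protein signalling in microglia, 0.715. The median of other homeostatic microglial genes was 0.403, that of ITAM signalling genes 0.371, and that of oligodendrocyte markers -0.165.

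The 4 arrays with the highest choroid plexus level were also the 4 with the highest level of MHC class II genes, which present peptides on macrophages and dendritic cells. The class II level of these arrays was 0.17 in KO female 2, 0.18 in KO male 2, 0.23 in WT female 2 and 0.09 in WT male 1, and their choroid plexus level was 0.55, 0.36, 0.83 and 0.89. The other 8 arrays had class II levels from -0.16 to 0.06. The mean level of the 31 members in the same arrays was 0.06 in KO female 2, 0.06 in KO male 2, -0.00 in WT female 2 and -0.07 in WT male 1.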
